A study of Drosophila melanogaster with 2 samples.

Results

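Of the 7521 reproducible binding peaks of the GFP-tagged homeodomain protein Lms in Drosophila melanogaster embryos, 1732 (23.0%, exact 95% interval 22.1 to 24%) lay inside introns and far from any gene start. They are called far intron peaks here. A peak was counted when its summit, the position of highest signal, fell inside a gene and in no annotated exon. The summit also had to lie over 500 bp from every transcription start site (TSS) and more than 2000 bp from the nearest protein-coding one. Within the list of reproducible peaks only the position of the summit entered the choice. The list itself, derived from both replicates, holds the 7521 peaks of highest signal called on them together. The 1732 peaks lay in 1722 distinct intervals, since some intervals hold more than 1 summit. The other peaks were 1026 intron peaks closer to a protein-coding TSS, 810 intergenic peaks at the same distances, 3451 promoter peaks within 500 bp of a TSS, 325 closer intergenic peaks and 177 exon peaks. The chromatin came from 2 biological replicates of 1 group, pooled male and female whole embryos aged 6 to 18 hours by their source name, which a separate age label of both samples does not match. The animals were from 1 transgenic line that stably expresses Lms with GFP at its C terminus, and the precipitation used an antibody against GFP. No untreated, untagged or mutant group was available for comparison. Whole embryos mix every cell type, so a peak cannot be assigned to muscle, and no source used here gives the read depth.

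lms (lateral muscles scarcer, CG13424) encodes a homeodomain transcription factor known from the lateral transverse body wall muscles of the embryo. Homeodomain proteins commonly recognise short sites with a TAAT core. Introns of fly developmental genes often hold enhancers, the sequences at which transcription factors meet to switch a gene on in particular cells. Enhancers can lie far from the promoter they act on, and the gene around an intronic enhancer is not always its target.

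The sequences at the highest far intron peaks are shown first, because the comparisons of base composition and hexamers rest on such windows. Each line gives 101 bases centred on the summit, from the forward strand of the release 6 reference genome in dm6 coordinates, for the 6 peaks of highest signal on chromosomes X, 3L and 3R. Capitals mark TAATTA, a core that many homeodomain proteins bind, or else the hexamers ATCTTA or GTTATA or TTATAA, on either strand; these 3 hexamers are among the 5 with the highest ratio of summit to flank windows.
Tlk, chrX:3742174-3742274: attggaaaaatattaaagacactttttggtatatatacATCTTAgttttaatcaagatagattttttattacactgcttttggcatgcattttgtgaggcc
Kdm2, chr3R:9057505-9057605: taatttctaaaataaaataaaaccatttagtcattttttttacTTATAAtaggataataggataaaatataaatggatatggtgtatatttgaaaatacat
trx, chr3R:14283826-14283926: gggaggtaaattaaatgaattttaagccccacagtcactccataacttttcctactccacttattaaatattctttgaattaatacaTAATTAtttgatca
CHES-1-like, chrX:7706935-7707035: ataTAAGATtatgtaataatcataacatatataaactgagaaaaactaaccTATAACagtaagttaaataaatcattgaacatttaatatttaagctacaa
tara, chr3R:16236897-16236997: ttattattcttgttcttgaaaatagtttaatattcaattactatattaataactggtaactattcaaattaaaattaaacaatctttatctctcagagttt
simj, chr3L:10682883-10682983: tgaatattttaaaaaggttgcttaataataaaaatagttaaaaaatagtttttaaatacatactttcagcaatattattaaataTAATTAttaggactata

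Each of the 6 windows was rich in A and T. G and C made up 27.7% of the Tlk window, 16.8% of Kdm2, 28.7% of trx, 18.8% of CHES-1-like, 18.8% of tara and 14.9% of simj. The windows of trx and simj held TAATTA, and that of tara held none of the marked hexamers. The trx window is also that of the highest peak on these chromosomes with TAATTA, and the Tlk window that of the highest with ATCTTA. The flanking window of the tara peak, centred 500 bp to its left, had 58.4% G and C, and was chosen after its values were seen. That window lies within another far intron peak of tara, so it does not stand for sequence without a peak. Its G and C was also above the mean of 42.2% in 51 bp windows 500 bp to the left of far intron summits.
tara flank, chr3R:16236397-16236497: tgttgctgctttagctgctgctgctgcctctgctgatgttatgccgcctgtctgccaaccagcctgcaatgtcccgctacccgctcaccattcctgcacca

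The 10 far intron peaks of highest signal lay in Tlk, CG12769, Kdm2, Hr3, trx, CHES-1-like, tara, simj, Gug and a noncoding gene. The signal is the authors' score, whose scale was not stated, so values are comparable within a list and not between lists. The highest lay in the second intron of Tlk, which encodes a Tousled-like kinase of chromatin assembly, at chrX:3741939-3742498, 2327 bp from the TSS. Its signal was 3966 in replicate 1 and 818 in replicate 2, which placed it at rank 23 and rank 25 of those lists, and its signal in the combined IDR list was 4765, at rank 24. The next was in the first intron of CG12769, at chr2R:8060774-8061252, with a signal of 3541 (rank 33) in replicate 1, 669 (rank 52) in replicate 2 and 4207 in the IDR list. In the second intron of Kdm2, which encodes a histone lysine demethylase, the peak at chr3R:9057269-9057794 had a signal of 3111 (rank 42) in replicate 1, 545 (rank 84) in replicate 2 and 3644 in the IDR list. All 3 were therefore among the 100 highest peaks of every list, at ranks from 23 to 84.

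The peak in Hr3, a nuclear receptor of the ecdysone response, lay at chr2R:10219840-10220319, 7882 bp from the TSS, and ranked 56 in replicate 1 and 55 in replicate 2; CG12912 and CG46321 span the same position. The peak in trx, the trithorax histone methyltransferase, lay at chr3R:14283614-14284117, 3027 bp from the TSS, and ranked 73 in replicate 1 and 114 in replicate 2. CHES-1-like, a forkhead transcription factor, held one at chrX:7706352-7707291, 2022 bp from the TSS, that ranked 82 in replicate 1 and 113 in replicate 2. These 3 peaks stood in the first intron of the longest protein-coding transcript of their gene. In tara (taranis), a regulator linked to the trithorax group and the cell cycle, the peak at chr3R:16236689-16237178 ranked 81 in replicate 1 and 173 in replicate 2. The peak in simj, the p66 subunit of the NuRD chromatin remodelling complex, lay at chr3L:10682653-10683285 and ranked 107 in replicate 1 and 142 in replicate 2. Its own TSS was 18194 bp away, whereas that of CG11811 was 8091 bp away. Gug, the Atrophin corepressor, held a peak in its second intron at chr3L:8458086-8458567, at rank 101 in replicate 1 and 174 in replicate 2. The remaining one, at chr2R:24327537-24327975, lay in the noncoding gene lncRNA:CR44810, ranked 118 in replicate 1 and 117 in replicate 2, and its nearest protein-coding TSS, 6332 bp away, was that of slbo, a C/EBP transcription factor. Each of the 10 ranked between 23 and 174 in both replicate lists of 30000 peaks.

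**Figure D1:**
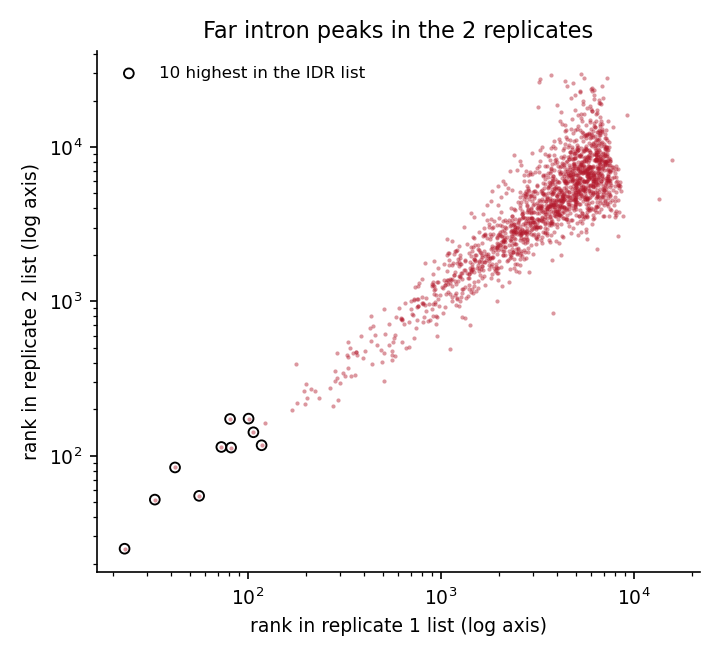
Rank of each far intron peak in the list of replicate 1 (horizontal) and replicate 2 (vertical), both on log axes, for the 1655 peaks with a summit within 150 bp in both full lists; rank 1 is the highest signal. The 10 peaks of highest signal in the IDR list (open circles) sit at the low-rank corner, and the spread between replicates widens toward weak peaks.

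The IDR list was derived from both replicates, so the shares found again in them are a description. Each of its peaks was among the 7521 highest called on both together, and did not have to be found in either replicate alone. Of the 1732, 96.0% had a summit within 150 bp among the 7521 highest peaks of replicate 1, and 77.4% among those of replicate 2. Both conditions held for 1285 (74.2%). The matched share was 80.4% of promoter peaks (two-sided Fisher's exact test, p adjusted over 3 classes = 1.11e-06), 77.9% of the closer intron peaks (adjusted p = 0.0468) and 74.0% of the far intergenic peaks (adjusted p = 0.923). The difference from promoter peaks lay in replicate 2, with 77.4% of far intron and 84.8% of promoter peaks matched (Fisher's exact test, adjusted p = 1.77e-10). It did not lie in replicate 1, with 96.0% and 94.8% (Fisher's exact test, adjusted p = 0.0935). In replicate 1 the closer intron peaks were matched at 95.6% and the far intergenic peaks at 94.1%. Such high shares left little room for a difference there. The tests did not hold rank constant, and far intron peaks ranked lower in the IDR list than promoter peaks (median rank 4198 against 3349). The part of rank in the difference in matched share was not tested. Searched in the full replicate lists, 1655 far intron peaks (95.6%) were matched in both, against 96% of promoter peaks (Fisher's exact test, adjusted p = 0.461), so the difference from promoter peaks held only for the highest 7521. Absent from the full list of replicate 2 were 61 peaks (3.52%), and 18 (1.04%) were absent from that of replicate 1. Across the 1655 matched peaks, the Spearman correlation of the replicate ranks was 0.80; it runs across peaks, which share the 2 libraries, and peaks are not independent replicates. All tests here treat peaks as independent and do not measure the spread between embryos; intervals cover counting error only.

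Far intron peaks were weaker than promoter peaks. Their signal in the IDR list ran from 135 to 4765, with a median rank of 4198 (interquartile range 2389 to 5828). The median rank was 3510 for the closer intron peaks, 4290 for the far intergenic peaks and 3349 for promoter peaks. Among the 1000 highest peaks were 134 of the far intron peaks (7.74%). The share was 18.1% of promoter peaks (two-sided Fisher's exact test, p adjusted over 3 classes = 8.19e-25), 14.0% of closer intron peaks (adjusted p = 2.95e-07) and 6.30% of far intergenic peaks (adjusted p = 0.219). Ranked by replicate 1 alone, 7.83% of far intron peaks were among the 1000 highest, against 17.7% of promoter peaks. Ranked by replicate 2 alone, the shares were 7.38% and 18.2%. Far intron peaks made up 13.4% of ranks 1 to 1000, 20.9% of the next 1000 ranks, 28.6% of ranks 5001 to 6000, 26.8% of ranks 6001 to 7000 and 21.7% of ranks 7001 to 7521, so the share did not rise throughout. In the weaker peaks of the list called on both replicates together, which fell outside the IDR list, their share was 32.2% of 22479. Median peak width was 278.5 bp for far intron peaks, 322 bp for closer intron peaks, 276.5 bp for far intergenic peaks and 372 bp for promoter peaks.

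Introns held more peaks per base than intergenic sequence at the same distances. In the sequence where a far intron peak could lie, 42.73 Mb, there were 40.5 peaks per Mb. In the matching 31.14 Mb of intergenic sequence there were 26.0 per Mb, a ratio of 1.56 (exact 95% interval 1.43 to 1.70; two-sided exact binomial test, p = 1.53e-26). Density fell with distance from the nearest protein-coding TSS. It was 60.9 per Mb at 2 to 5 kb (729 peaks), 49.9 at 5 to 10 kb (536), 35.5 at 10 to 20 kb (320), 23.7 at 20 to 50 kb (136) and 2.09 beyond 50 kb (11). Replicate 1 gave 61.2, 50.3, 35.3, 23.7 and 2.09 per Mb for the same distances, and replicate 2 gave 56.9, 45.5, 32.3, 22.4 and 1.90. Both replicates thus fell in the same order. By exact binomial tests, the ratio of intron to intergenic density was 1.52 at 2 to 5 kb (p adjusted over 4 distances = 1.78e-09), 1.55 at 5 to 10 kb (adjusted p = 3.11e-08) and 1.53 at 20 to 50 kb (adjusted p = 0.004). It was 1.11 at 10 to 20 kb, where the exact test was not passed (adjusted p = 0.271).

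The median far intron peak lay 5848 bp from the nearest protein-coding TSS (interquartile range 3484 to 10536 bp, farthest 86578 bp). The share among the 1000 highest peaks was 9.74% at 2 to 5 kb, 8.40% at 5 to 10 kb, 2.50% at 10 to 20 kb and 7.35% at 20 to 50 kb. Beyond 50 kb 0 of 11 were, with an exact 95% interval reaching 28.5%. The threshold of 2000 bp cut through a continuous run of peaks. The 46 far intron peaks lying 2003 to 2094 bp from a protein-coding TSS had a median rank of 4646 (88 to 7347), and the 47 intron peaks at 1901 to 1999 bp had a median rank of 3538 (364 to 7435).

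**Figure D2:**
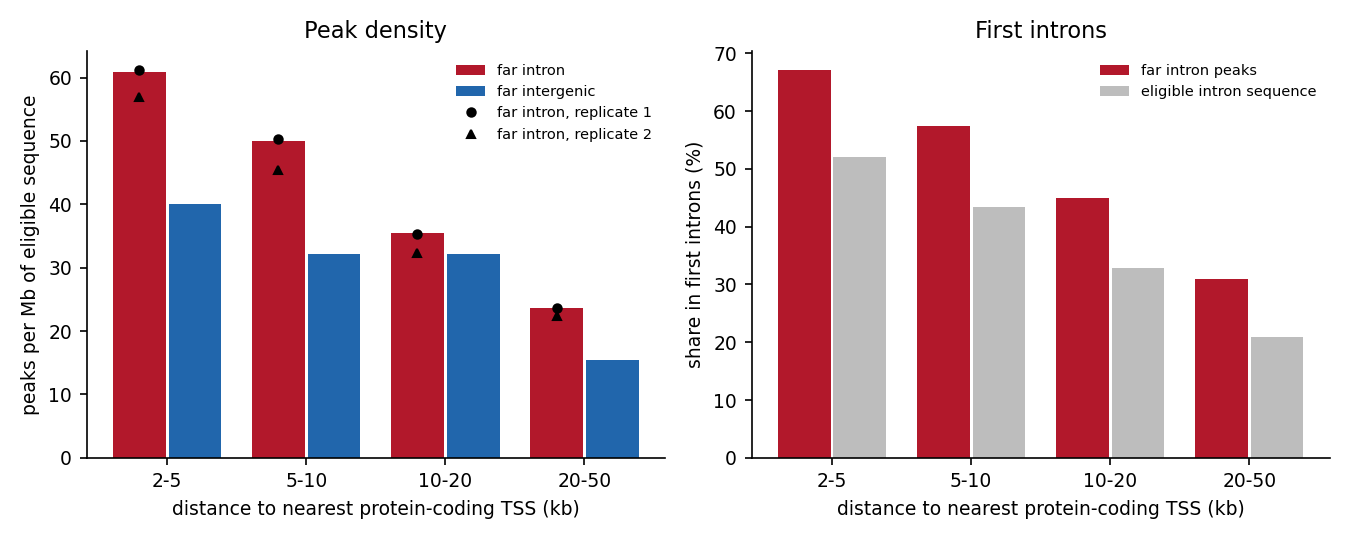
Left, peaks per Mb of eligible sequence by distance to the nearest protein-coding TSS, for far intron peaks (red bars) and far intergenic peaks (blue bars); points give the far intron density from the 7521 highest peaks of each replicate. Right, share of far intron peaks (red) and of eligible intron sequence (grey) in first introns, which is higher for the peaks at each of the 4 distances.

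First introns, those directly after the first exon of a transcript, held more of the peaks than their length would give. A first intron of some protein-coding transcript held 983 of the 1732 far intron peaks (56.8%, exact 95% interval 54.4 to 59.1%), against 36.1% of the eligible intron sequence (two-sided exact binomial test, p = 1.73e-68). Because first introns lie close to start sites, the comparison was repeated within distances. The share was 67.1% of peaks against 52.1% of sequence at 2 to 5 kb, 57.5% against 43.4% at 5 to 10 kb, 45% against 32.8% at 10 to 20 kb and 30.9% against 20.9% at 20 to 50 kb. Each of the 4 differences passed the test, with p adjusted over the distances from 1.15e-15 to 0.00598. In the longest transcript of their protein-coding gene, 688 of 1686 peaks were in intron 1 (40.8%), 551 in intron 2 (32.7%) and 447 in a later one (26.5%). The introns were long, with a median of 17.0 kb.

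The X chromosome had the densest far intron peaks. There were 430 on the X, or 52.6 per Mb of eligible sequence, against 38.2 per Mb on the 4 large autosome arms, a ratio of 1.38 (exact 95% interval 1.23 to 1.54; two-sided exact binomial test, p = 2.05e-08). The ratio was 1.35 in each replicate list. By distance, with exact binomial tests, it was 1.34 at 2 to 5 kb (p adjusted over 4 distances = 0.00223), 1.18 at 5 to 10 kb (adjusted p = 0.135), 1.00 at 10 to 20 kb (adjusted p = 1) and 1.38 at 20 to 50 kb (adjusted p = 0.135), so only the nearest passed. The other arms held 287 (2L), 268 (2R), 347 (3L) and 400 (3R), from 34.6 to 42.2 per Mb. Chromosome 4 held 0 in 0.459 Mb, where a limit of 3 counts allows a density of up to 6.53 per Mb; replicate 1 alone gave 1 peak there and replicate 2 alone gave 3. The embryos were of mixed sex.

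Far intron peaks were held by 774 protein-coding genes, which is 5.55% of the 13945 in the annotation and 17.9% of the 4320 with any eligible intron. Of these, 395 genes held 1, 295 held 2 to 4 and 84 held 5 or more, with 557 peaks in that last group. Replicate 1 gave 774 such genes and replicate 2 gave 741, and 659 of the 774 from the IDR list were in both. The peaks were often close to each other, with 313 (18.1%) within 1 kb of another and 883 (51.0%) within 5 kb. For 74.6% of the 1686 in protein-coding genes, the nearest protein-coding TSS belonged to a gene that held the peak. A promoter peak stood at 379 of the 774 genes (49.0%), against 1232 of the 3546 genes with eligible introns and no far intron peak (34.7%). Eligible length differed between these genes, with a median of 16.6 kb in those that held a peak and 0.760 kb in those that did not. Its part in that difference was not tested.

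The gene with most far intron peaks was kirre (FBgn0028369), which encodes the immunoglobulin receptor of muscle founder cells that attracts fusion-competent myoblasts. kirre held 22 far intron peaks in the IDR list, 22 in replicate 1 and 20 in replicate 2. Their signals ran from 139 to 1313 with a median of 216, against a median of 241 over all far intron peaks. The strongest, at chrX:3096990-3097403, ranked 443 in replicate 1 and 395 in replicate 2. kirre spans 394 kb and has 290.5 kb of eligible intron, so its density was 0.757 per 10 kb, against 0.405 per 10 kb over all eligible introns.

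Several other genes held many peaks in shorter introns. mam (mastermind), the Notch coactivator, held 12 in the IDR list, 11 in replicate 1 and 10 in replicate 2, at 2.49 per 10 kb, with signals from 138 to 1997. sbb (scribbler), a zinc finger corepressor, held 11, 12 and 13 in those lists, at 2.35 per 10 kb, and 4 neighbouring peaks between 18.8 and 23.9 kb from its 5′ end had signals from 997 to 1942. ftz-f1, a nuclear receptor, held 11, 12 and 11, at 2.90 per 10 kb, with signals from 191 to 718. All 4 genes showed similar numbers of peaks in both replicates.

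A tie cut the group of 10 genes with most peaks, since 6 genes held 9 each and 13 held at least 9; of the tied, tara, Raf and shn had the strongest single peak, and ush, fz and fz2 were left out. Of the other genes among the 10, hth, a homeodomain cofactor of Hox proteins, held 10 in the IDR list, 10 in replicate 1 and 7 in replicate 2. Snoo, the Ski-family corepressor, held 10, 11 and 8, and Ten-a, a teneurin adhesion protein, held 10, 9 and 7. tara held 9, 8 and 11, Raf, the MAP kinase kinase kinase, held 9, 9 and 9, and shn (schnurri), a zinc finger protein of Dpp signalling, held 9, 10 and 10. Among genes with at least 5 peaks, the densest was CHES-1-like at 7.73 per 10 kb of eligible intron, with 6 peaks in the IDR list, 6 in replicate 1 and 5 in replicate 2. Next came trx at 6.21 per 10 kb with 5, 5 and 5, and PRAS40, a regulator of TORC1, at 4.13 per 10 kb with 5, 4 and 5, of which a pair of summits in the IDR list share 1 interval. crp (cropped), a bHLH transcription factor, reached 3.80 per 10 kb with 7, 7 and 3, and aop (Yan), an ETS repressor, 3.76 per 10 kb with 5, 5 and 4. The count in crp thus differed between replicates more than in the other 4.

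**Figure D3:**
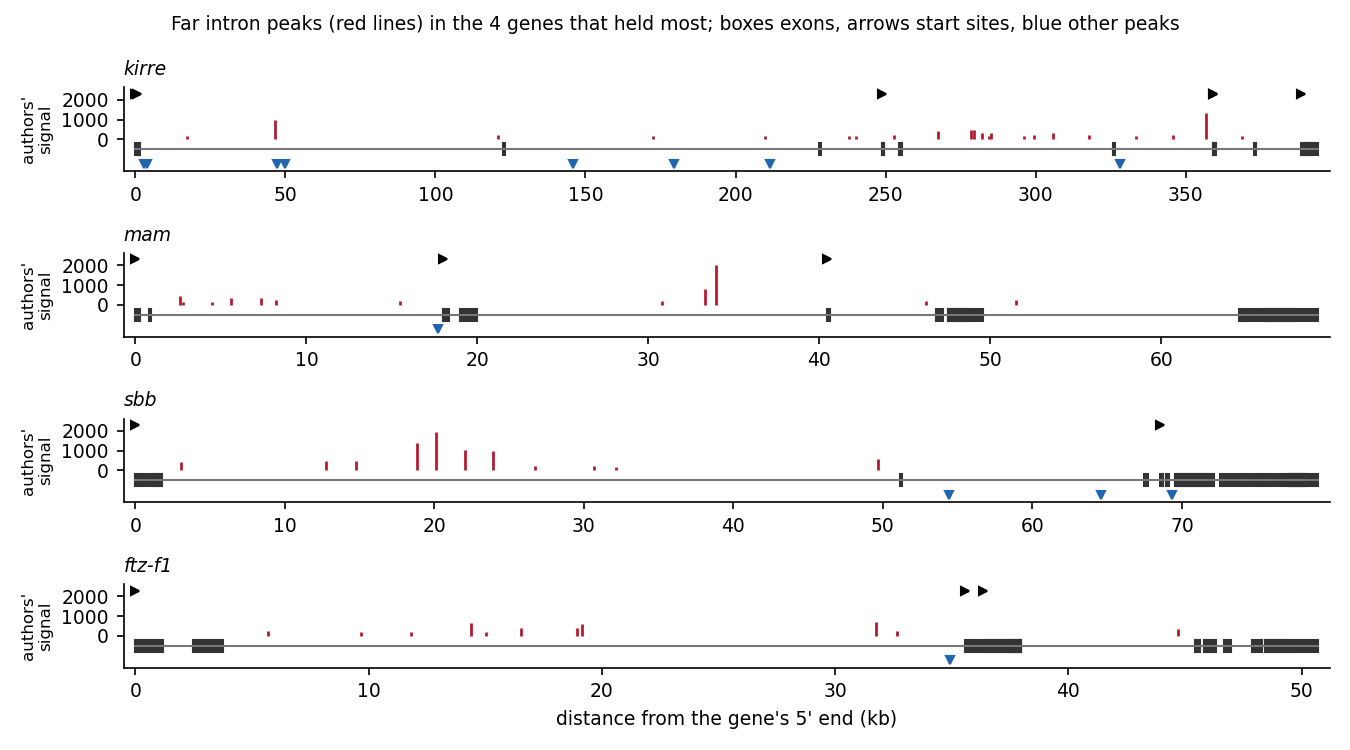
Far intron peaks along the 4 genes that held most, by distance from the 5′ end of the gene in kb; the height of each red line is the authors' signal in the IDR list, dark boxes are exons of all transcripts, arrowheads are protein-coding start sites and blue triangles are other IDR peaks in the gene. The 22 peaks of kirre spread from 17.2 to 369 kb, and the strongest peaks of mam and sbb have neighbours within a few kb.

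Some muscle genes of every list examined held far intron peaks, and most genes of each list held none. Of 23 muscle identity factors with a name in the annotation, 8 (34.8%) held 1 each, against the 5.55% of all protein-coding genes. These were 8 of the 20 factors with eligible introns, against the 17.9% of all genes with eligible introns. Replicate 1 gave 8 and replicate 2 gave 7. The median eligible intron of that list was 8.02 kb. nau, the MyoD homologue, held a peak at chr3R:23713983-23714239 with rank 2501 in replicate 1 and 2744 in replicate 2. tey (teyrha-meyrha), a repressor in specific muscles, held one at ranks 2686 and 2420, and Ptx1, a Pitx-type homeodomain factor, one at ranks 4080 and 5962. The nau peak lay 4244 bp from the TSS of nau and nearer, 2586 bp, to that of CG10300. The tey peak lay 7510 bp from the TSS of tey and 6303 bp from that of Oat. The Ptx1 peak was nearest the TSS of Ptx1. The others were lbl, ara, caup, kn and twi, and lms itself has no eligible intron. Factors with long eligible introns and 0 peaks included pdm3 (42.5 kb), lov (38.82 kb) and nub (26 kb).

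Of 20 mesoderm and heart regulators, 4 held peaks (20%), in each replicate too. jumu, a forkhead factor, held 2, of which the higher ranked 1346 in replicate 1 and 1052 in replicate 2. how, an RNA-binding protein of muscle and tendon, held 1 at ranks 1237 and 1358. Mef2, the myogenic MADS-box factor, held 5, of which the highest, at chr2R:9935878-9936151, ranked 3124 and 2339. twi, in both lists, held the other. Of 17 myoblast fusion genes, 5 held peaks (29.4%), which were kirre, siz, a guanine nucleotide exchange factor for Arf, with 3, mbc, part of the Rac exchange factor of fusion, with 1, and rols and hbs with 2 each. Of 23 sarcomere genes 3 held 1 peak each (13.0%), in Zasp52, a Z-disc protein, tmod (tropomodulin) and Tm1 (tropomyosin), whose peak had no match among the highest of replicate 2. Of 19 genes of muscle attachment and guidance, 7 held peaks (36.8%), among them mew, an integrin subunit, with 8, sli (slit), the Robo ligand, with 5, and Tsp, the tendon thrombospondin, with 2. Replicate 2 gave 5 in mew and 2 in sli. The strongest mew peak lay 22927 bp from the TSS of mew and 2310 bp from that of CG32639. The strongest peaks of sli and Tsp were nearest the TSS of their own gene. Genes of these lists with long eligible introns and 0 peaks included svp (22.58 kb), sns (43.95 kb), bt (21.51 kb) and sls (14.62 kb).

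Genes on lists of other cell types held peaks as well. Among neuronal genes 10 of 23 did (43.5%), with ftz-f1, whose receptor is not specific to nerve, jeb, a ligand of Alk, and cpo (couch potato), an RNA-binding protein, highest in signal; the median eligible intron of the list was 22.7 kb. Among tracheal and epidermal genes 6 of 14 did (42.9%), led by grh (grainyhead), an epidermal factor, whose peak ranked 499 in replicate 1 and 405 in replicate 2, then rib (ribbon) at ranks 1262 and 2010 and dally, a heparan sulphate proteoglycan, at 1850 and 1943. That dally peak lay 14429 bp from the TSS of dally and 5472 bp from that of CG32026. Among genes of gut, fat body and blood 4 of 15 held peaks (26.7%), led by ush (u-shaped), a GATA cofactor, with 9 in each list. cad (caudal), a hindgut homeodomain factor, and eya (eyes absent) held 1 each. The cad peak lay 10060 bp from the TSS of cad and 6702 bp from that of Pomp. Among glial genes 2 of 11 did (18.2%), pnt (pointed), an ETS activator, with 7 and pros (prospero), a homeodomain factor of neural precursors, with 1. In replicate 1 alone only pnt did, since pros held 0 there. Neuronal genes with eligible introns and 0 peaks included para (53.82 kb), Appl (38.73 kb), brp (17.62 kb), futsch (17.15 kb) and Syt1 (13.69 kb). The neuronal gene elav and the glial genes repo, gcm and wrapper have no eligible intron. The glial genes loco, nrv2, Gli, Eaat1 and moody, with at most 2.2 kb each, held 0. The shares given above count every named gene of a list, for which the background is 5.55% of all protein-coding genes. The background of 17.9% counts only genes with eligible introns. Among such genes, 10 of 21 neuronal, 6 of 11 tracheal and epidermal, 4 of 10 gut, fat body and blood and 2 of 8 glial genes held peaks. For mesoderm and heart regulators it was 4 of 15, and for sarcomere genes 3 of 15. For myoblast fusion genes it was 5 of 11, and for genes of muscle attachment and guidance 7 of 14. The lists are small and no test was run on them.

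The lists with most holders were those of signalling and of genes with long introns. All gene lists were chosen with earlier results of these data known, so high shares in them are a description and not an independent result. Signalling genes held peaks in 13 of 23 cases (56.5%), with a median eligible intron of 9.66 kb. aos (argos), the secreted Egfr inhibitor, had its higher peak at chr3L:16480366-16480767, at rank 170 in replicate 1 and 198 in replicate 2. The strongest mam peak ranked 198 and 217, and the strongest shn peak 509 and 463. That mam peak lay 6500 bp from the TSS of mam and 3457 bp from that of CG18371, whereas those of aos and shn were nearest their own TSS. Adhesion and axon guidance genes held them in 13 of 22 (59.1%; median eligible intron 46.3 kb), with kirre, fz (frizzled), the Wingless receptor, and Fas3 (Fasciclin 3) highest. The strongest fz peak lay 29720 bp from the TSS of fz and 25283 bp from that of CG13482. The list of zinc finger and nuclear receptor regulators held far intron peaks in 13 of 19 (68.4%, 37.8 kb). Its 3 highest were in Tlk, tara and sbb, of which the kinase gene Tlk and tara are neither zinc finger nor nuclear receptor genes. Hox genes and cofactors held them in 4 of 10 (40.0%; 16.7 kb), where Antp held 8 in each list and pb held 2. Polycomb and trithorax group genes held them in 4 of 21 (19.0%, 0.413 kb), in trx, the Polycomb subunits Psc and ph-p, and kis. Among genes with eligible introns, the counts were 13 of 20 for signalling and 13 of 21 for adhesion and axon guidance. They were 13 of 18 for zinc finger and nuclear receptor regulators and 4 of 9 for Hox genes and cofactors. For the Polycomb and trithorax group the count was 4 of 18. The background for such counts is the 17.9% of all genes with eligible introns. The lists differ in eligible intron length as given, and its part in the counts was not tested.

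Base composition dipped sharply at far intron summits. In 51 bp windows, G and C averaged 30.6% ± 9.0 at the summit (SD over 1732 peaks), against 42.2% 500 bp to either side and 40.0% over all eligible introns. The summit was below the mean of both flanks in 1433 of the 1732 (82.7%). G and C rose above the intron average on both shoulders, to 44.9% and 45.1% at 250 bp, before returning to 40.3% and 40.6% at 1000 bp. The far intron peaks from replicate 1 averaged 30.7% at the summit and those from replicate 2 averaged 31.0%. The 134 peaks within the 1000 highest were lower, at 28.4%, and the 7228 weaker ones outside the IDR list were higher, at 38.5%. The dip was shared by the other classes, with 31.0% at closer intron peaks, 29.8% at far intergenic peaks and 32.4% at promoter peaks. These composition values are descriptions, with no test.

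**Figure D4:**
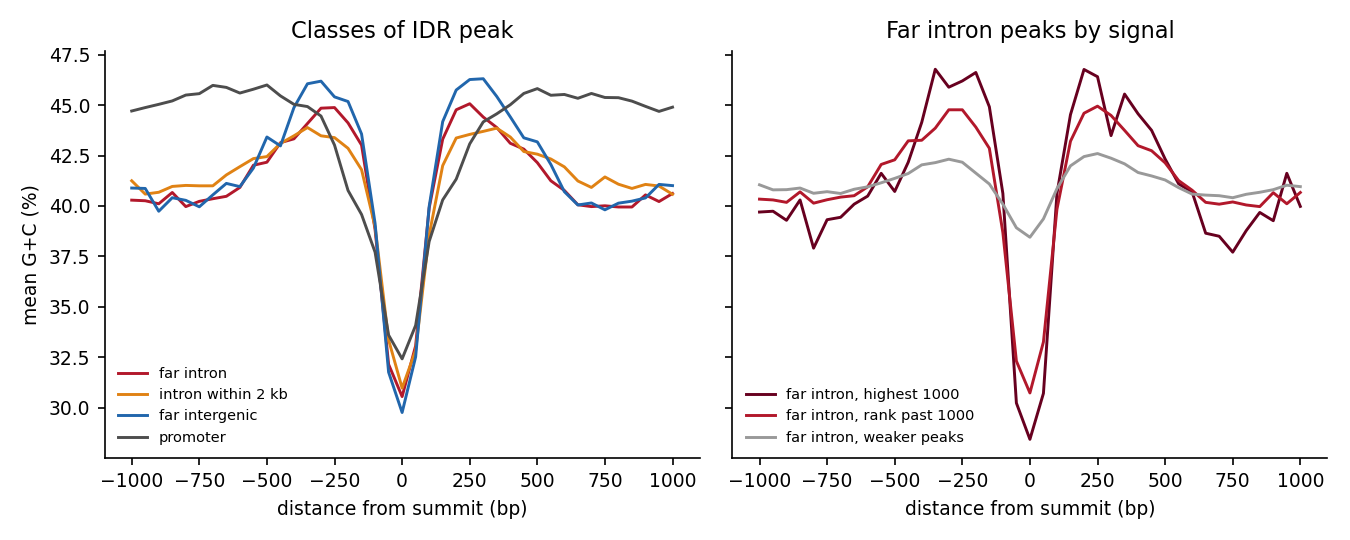
Mean percentage of G and C in 51 bp windows by distance from the summit, for far intron peaks and 3 other classes of IDR peak (left) and for far intron peaks by signal (right). Far intron peaks drop to 30.6% at the summit between shoulders near 45%, and the dip is deeper in the 134 within the highest 1000 (28.4%) than in the weaker peaks outside the IDR list (38.5%).

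Short words followed that composition. Each of the 2080 hexamers, counted on both strands, was compared between the 101 bp windows of the summits and flanking windows 500 bp away by an exact McNemar test with Benjamini-Hochberg adjustment. At summits 372 hexamers (17.9%) were higher and 788 (37.9%) lower than in flanks; 281 of the 372 and 575 of the 788 were called in the same direction in both replicate lists. All 36 hexamers of A and T alone were higher, and of the 720 with at least 4 G or C 0 were higher and 563 lower. The median ratio of summit to flank windows was 2.05 for hexamers with 0 G or C, 1.81 with 1, 1.24 with 2, 0.749 with 3 and 0.448 with 4.

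In these windows the highest ratio belonged to ATCTTA, found in 187 summit windows (10.8%) and 52 flank windows (3%), a ratio of 3.6 (exact McNemar test, adjusted p = 6.07e-18). Its ratio was 3.11 in replicate 1 and 2.88 in replicate 2. The first place changed with the setting: with 30 bp either side ATCTTA had 3.11, GTTATA 3.50 and TTATAA 3.39, and with flanks 1000 bp away ATCTTA had 2.12, GTTATA 2.36 and TTATAA 2.15. ATCTTA was most frequent within 60 bp of the summit, at 2.02 to 2.66% of peaks in each 20 bp step, against 0.404 to 1.04% beyond 120 bp. ATCTTA was present in 8.66% of promoter windows (Fisher's exact test, adjusted p = 0.110), 10.1% of closer intron windows and 13.5% of far intergenic windows. Next by ratio came ACGTTA (3.38), AGATCT (3.21), GTTATA (3.19) and TTATAA (3.12), the last in 228 summit windows and 73 flank windows. With flanks 1000 bp away the ratio of ACGTTA was 1.22 (exact McNemar test, adjusted p = 0.535) and that of AGATCT 1.55 (adjusted p = 0.131), so both lost their calls. ACGTTA also lost its call with the opposite flank (ratio 1.47; exact McNemar test, adjusted p = 0.160), and its ratio was 2.20 in replicate 1 and 2.11 in replicate 2. AGATCT had 2.88 in replicate 1 and 2.18 in replicate 2. Windows of 30 bp either side of the summit lost those of AGATCT (exact McNemar test, adjusted p = 0.0561) and CGCGCG (adjusted p = 0.0696). Lowest was CGCGCG, in 0 summit windows, which allows a share of up to 0.173%, and 16 flank windows. CGCTCC had a ratio of 0.0984, CCCGGC and CCGGCC 0.106 each, and CCGAGG 0.114.

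**Figure D5:**
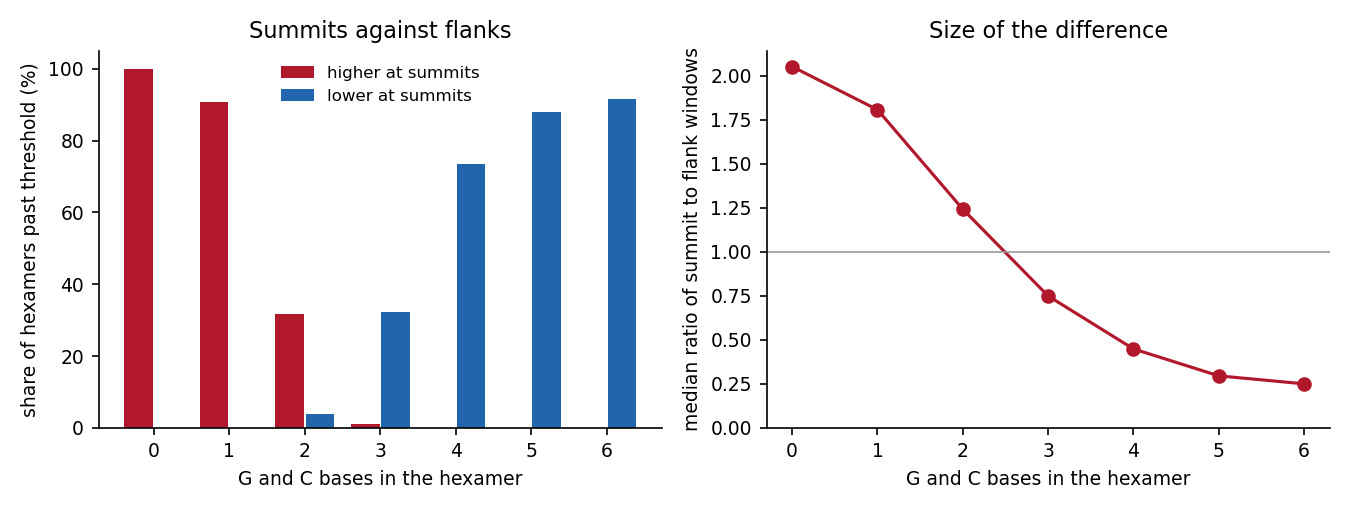
Left, share of hexamers past the threshold as higher (red) or lower (blue) at far intron summits than in flanks, by the number of G and C bases in the hexamer. Right, median ratio of summit to flank windows, which falls from 2.05 with 0 G or C to 0.250 with 6; the grey line marks equal presence.

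The homeodomain core TAATTA was more frequent at summits, within the range of other A and T words. TAATTA stood in 196 summit windows (11.3%) and 119 flank windows (6.87%), a ratio of 1.65 (exact McNemar test, p adjusted over 2080 hexamers = 2.84e-05). Its ratio was 1.43 in replicate 1 and 1.71 in replicate 2. In windows of 30 bp either side of the summit its ratio was 1.41 and the exact McNemar test was missed (adjusted p = 0.0511 over 24 motifs). By ratio, TAATTA was at place 31 of the 36 hexamers of A and T alone. Presence was 11.7% in promoter windows, 12.2% in closer intron windows and 9.63% in far intergenic windows, none of them past the test against far intron peaks. Of the 134 peaks within the 1000 highest, 23 (17.2%) held TAATTA, against 173 of the other 1598 (10.8%), which failed after adjustment over 6 hexamers (two-sided Fisher's exact test, adjusted p = 0.196). The variant TAATTG had a ratio of 0.95 (exact McNemar test, adjusted p = 0.724) and the Bicoid-type TAATCC a ratio of 1.41 (adjusted p = 0.206).

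Of 24 chosen words, which include the composition references AAAAAA and ATATAT and GGAGGA beside a CA repeat and motifs of known factors, searched as exact letters on both strands, 4 (16.7%) were higher at summits than in flanks and 8 (33.3%) lower, by the exact McNemar test adjusted over the 24. The higher ones were TAATTA, the Hox and Exd composite TGATTNAT with a ratio of 1.5 (exact McNemar test, adjusted p = 0.0455), and the A and T words AAAAAA, with 1.39, and ATATAT, with 2.26. TGATTNAT had a ratio of 1.71 in replicate 1 (exact McNemar test, adjusted p = 0.00841) and 1.38 in replicate 2 (adjusted p = 0.179). Its call was also lost with flanks 1000 bp away (ratio 1.17; exact McNemar test, adjusted p = 0.634), with 30 bp either side (1.56; adjusted p = 0.120) and with 100 bp either side (1.15; adjusted p = 0.478). The lower ones were the MyoD-type E-box CAGCTG, with a ratio of 0.494, the Myc-type CACGTG, with 0.250, the GAGA factor word GAGAGAG, with 0.229, the CA repeat CACACACA, with 0.282, the Pho core GCCATT, with 0.461, the TEAD word GGAATG, with 0.578, the Su(H) word TGGGAA, with 0.654, and GGAGGA, with 0.169. In replicate 1 alone, the calls of GGAATG (exact McNemar test, adjusted p = 0.0742) and TGGGAA (adjusted p = 0.0702) were lost, as was that of CAGCTG with the opposite flank (adjusted p = 0.0719). A match is only a run of letters, not evidence of binding. Windows can hold several of these words, and matches of TAATTA with TAATTG or with TGATTNAT can share bases.

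Words of known promoter factors were rare at far intron summits, as they were at closer intron and far intergenic summits. Against promoter peaks, 46 of 2080 hexamers (2.21%) were higher in far intron windows and 95 (4.57%) lower, by Fisher's exact test with Benjamini-Hochberg adjustment. The strongest difference was in CGATAG, in 1.67% of far intron windows and 8.20% of promoter windows (Fisher's exact test, adjusted p = 4.22e-21), and TATCGA and ATCGAT, which overlap it, followed. AGCCCT and GGTCAC were the next lower ones. The longer word TATCGATA, bound by the promoter factor DREF, stood in 2 far intron windows (0.115%) and 111 promoter windows (3.22%), with an adjusted p of 4.68e-16. GGTCACAC, the core of the element of the promoter factor M1BP, stood in 3 (0.173%) and 58 (1.68%), with an adjusted p of 1.62e-06. In closer intron and far intergenic windows, TATCGATA stood in 0.0975% and 0.370%, and GGTCACAC in 0.195% and 0.12%. The E-box CAGCTG was also lower than in promoter windows, at 2.37% against 3.91% (Fisher's exact test, adjusted p = 0.0202). It stood in 2.0% of closer intron and 1.2% of far intergenic windows. The AP-1 word TGANTCA was higher than in promoter windows, at 3.70% against 2.12% (Fisher's exact test, adjusted p = 0.00986). It stood in 3.61% of closer intron and 2.59% of far intergenic windows. Compared with flanks instead, its ratio of 1.42 did not pass in the IDR list (exact McNemar test, adjusted p = 0.14). Of the replicate lists, that ratio passed only in replicate 1. The most significant higher hexamers were AAAGAT, at 13.2% against 8.87%, ATCTTC, at 5.60% against 2.96%, TCTTCA, at 6.81% against 3.91%, AGAGAA, at 6.99% against 4.12%, and ATGAAT, at 14.2% against 10.1%.

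Against the closer intron peaks, 0 hexamers (0%) passed in either direction by Fisher's exact test with that adjustment; 40 were higher and 52 lower at an unadjusted p under 0.05. Against the far intergenic peaks, 0 (0%) passed as well, with 62 higher and 55 lower at an unadjusted p under 0.05. At the numbers of peaks available, 1026 and 810 in those classes, no hexamer told far intron peaks apart from either class; closer intergenic and exon peaks were not compared.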

How the data were processed

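The deposited lists, on dm6 per the labels, give each peak an interval, a summit, a −log10 q-value and a signal score of the authors' peak caller, of unstated scale. Per the notes deposited with the files, each replicate and both together were called against the same control alignment, and the irreproducible discovery rate (IDR) list was derived from these. The IDR list holds the 7521 highest of the 30000 peaks called on both together. The deposited −log10 q-value was not used. The aligner and caller were not given in the sources used, nor was read depth.

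Summits were annotated with Ensembl release 115, leaving out transposable elements as genes, exons and start sites. Eligible sequence is every base that meets the position rule. Replicate lists were compared through their 7521 highest peaks, with summits matched within 150 bp. Flanks were taken to the left for odd and to the right for even ranks. Tests were exact (Fisher, McNemar, binomial), two-sided, with Benjamini-Hochberg adjustment and a threshold of 0.05; intervals are exact Clopper-Pearson at 95%. Tests ran in scipy 1.17.1 with numpy 2.4.6 under Python 3.11.15. Tables were read with pandas 2.3.3 and figures drawn with matplotlib 3.10.9. The McNemar test of hexamers was checked on hexamers planted in windows drawn from sequence beside the peaks. The Fisher test was checked against the one in scipy, and the binomial tests were not checked in such a way.

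Named genes are those of the 10 highest peaks, the 10 protein-coding genes with most, and up to 3 per list for 14 lists; further holders and the 5 densest genes were named after their values were seen. The rule for the peaks, the gene lists and the motifs were chosen with earlier results of these data known. The lists of muscle, nerve, glia, epidermis and gut genes are textbook groups, not measured cell types.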

Additional observations from a re-analysis of the deposited data

How the results depend on the processing

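The 16 main results were recomputed under alternatives. Of 46 values with a test, 39 stayed on the same side of the threshold with the same direction, and of 42 counts and shares 33 moved by less than 1.5 times or by less than the spread of the replicates. The share of far intron peaks, 23.0%, was 13.3% with a distance of over 5000 bp, 20.1% in the highest-signal part of the IDR list and 29.9% in the full list called on both replicates together, and from 21.3 to 23.1% with each replicate left out; counting transposable elements as genes, chosen after seeing the data, kept it within the spread of the replicates. The difference in matched share from promoter peaks, -6.25 percentage points, was -0.45 in the full lists (Fisher's exact test, adjusted p = 0.461) and -7.48 to 1.20 with each replicate left out, so it rests on replicate 2. That from closer intron peaks, -3.68, was -4.02 with summits within 50 bp (Fisher's exact test, adjusted p = 0.0573), 1.99 in the full lists and -4.11 to 0.402 with each replicate left out. That from far intergenic peaks, 0.241, was -1.15 to 1.94. The ratio of intron to intergenic density, 1.56, was 1.11 at 10 to 20 kb (exact binomial test, adjusted p = 0.271). Hexamers that differed from promoter peaks, 141, were 50 with 30 bp either side of the summit, 403 with 100 bp, and 282 against promoter peaks ranked past 1000, the last chosen after seeing the data. Against far intergenic peaks the count of 0 was 0 to 1 with each replicate left out. Genes holding a far intron peak, 774, were 480 with a distance of over 5000 bp.

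Of 196 alternative values for single hexamers and motifs, 11 changed direction, none of them past the threshold in either setting. The ratio of TAATTG, 0.95, was 1.01 with 30 bp either side, 1.00 with the opposite flank and from 0.936 to 1.01 with each replicate left out. TAATCC, 1.41, was 0.912 with flanks 1000 bp away. CATATG, 1.02, was 0.915 with flanks 1000 bp away, 0.867 with the opposite flank and 0.921 without replicate 2. CAGGTAG, 0.667, was 2.00 with flanks 1000 bp away. TCAAGTG, 0.912, was 1.17 with 100 bp either side, 1.11 without replicate 1 and 1.18 without replicate 2. The causes were not tested. No paired analysis was possible because the study has 1 group. Depth is unknown, and the lists end at 30000 peaks, so weaker peaks were not analysed here.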
